A study of Mus musculus with 6 samples.

Results

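The genes described here are 10 subunits of integrins that bind extracellular matrix (ECM), taken by name from a table of 52636 genes: the alpha subunits Itga1, Itga2, Itga5, Itga6, Itga7, Itga8, Itga9 and Itgav and the beta subunits Itgb1 and Itgb5. They were measured by bulk RNA sequencing of the mouse thoracic aorta, and all 10 passed the filter on low counts. The 4 WT libraries came from untreated C57BL/6J mice. The 2 KO libraries came from Tgfbr1/2iSMCKO mice, which carry floxed alleles of both type I and type II TGF-β receptors, an mT/mG fluorescent reporter and a tamoxifen-inducible Cre under the smooth muscle myosin promoter (Myh11-CreERT2). Tamoxifen was given to the KO mice only, by intraperitoneal injection at a daily dose of 2 mg for 5 days from 11 weeks, and aortas of both groups were collected at 12 weeks of age. The groups shared the labelled strain, tissue and age, and all mice were male because the Cre construct sits on the Y chromosome. Cre, reporter, floxed alleles and tamoxifen therefore differed between the groups together with receptor loss, and their effects cannot be told apart. The Cre acts in smooth muscle cells (SMCs), whereas the RNA came from the whole vessel with its adventitia.

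Integrins are heterodimers of an alpha and a beta subunit that span the plasma membrane and tie matrix proteins to the actin cytoskeleton. The alpha subunit largely sets which matrix protein is bound: integrins α1 and α2 bind collagens, α6 and α7 bind laminins of the basement membrane, α5, α8 and αv recognise the Arg-Gly-Asp (RGD) motif of fibronectin, nephronectin and related proteins, and α9 binds tenascin and other ligands. Integrin β1 pairs with all of these alpha subunits, and β5 pairs with αv. In the arterial media such receptors anchor SMCs to the elastic laminae, collagen and basement membrane.

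Promoter sequence is shown for 3 members, because Itga5 and Itgb5 were lower and Itga2 was higher in KO. Each line gives the 250 bases before the RefSeq transcription start (build GRCm38.p6), read 5′ to 3′ on the strand of the gene. Capitals mark GTCTG, which contains the short core sequence bound by SMAD3, a transcription factor of the TGF-β pathway, and GGGCGG, the GC box, each on either strand, so that CAGAC and CCGCCC are marked too.
Itga5, chr15:103366792-103367041, minus strand: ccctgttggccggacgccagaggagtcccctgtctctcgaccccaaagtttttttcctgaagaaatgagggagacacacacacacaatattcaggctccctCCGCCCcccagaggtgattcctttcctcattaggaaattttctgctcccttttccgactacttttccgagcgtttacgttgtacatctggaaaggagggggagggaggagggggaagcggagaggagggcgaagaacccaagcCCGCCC
Itgb5, chr16:33829415-33829664, plus strand: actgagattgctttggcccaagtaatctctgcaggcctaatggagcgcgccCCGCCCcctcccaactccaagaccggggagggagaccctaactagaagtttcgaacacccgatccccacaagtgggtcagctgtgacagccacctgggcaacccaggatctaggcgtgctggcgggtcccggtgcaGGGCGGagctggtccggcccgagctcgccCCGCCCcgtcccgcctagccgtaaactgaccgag
Itga2, chr13:114932101-114932350, minus strand: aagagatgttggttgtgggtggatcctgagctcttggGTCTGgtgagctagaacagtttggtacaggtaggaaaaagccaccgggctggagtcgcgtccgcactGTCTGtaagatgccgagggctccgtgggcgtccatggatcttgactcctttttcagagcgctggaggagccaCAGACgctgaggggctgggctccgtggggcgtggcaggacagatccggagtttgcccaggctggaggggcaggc
The Itga5 window held 2 GC boxes and no GTCTG, the Itgb5 window held 3 GC boxes and no GTCTG, and the Itga2 window held 3 GTCTG and no GC box. No marked motif overlapped another. Among 32851 RefSeq windows of this length, 42.2% held GTCTG and 32.7% held the GC box on either strand. Of the 5 other members with a window, that of Itgb1 held 3 GTCTG and 1 GC box, that of Itga1 held 1 GTCTG, and those of Itga8, Itgav and Itga9 held neither. The Itga9 window lay 105002 bases from the outermost annotated start of the gene. A match in these letters is a description and says nothing about binding in the aorta.

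Total estimated counts ran from 19650983 to 28860598 per library. The libraries are named here WT-1 to WT-4, KO-1 and KO-2 by the last digit of their column code, which names no individual mouse. The columns were assigned to groups from codes that match the labels only in number, so every direction rests on that match. Whole-gene levels of the targeted receptors did not check it: Tgfbr1 gave a log2 fold change of 0.20 ± 0.20 (SE) and Tgfbr2 one of -0.09 ± 0.18 in KO against WT, neither past the test. Cre removes only the floxed part of each gene, and only in SMCs. KO-2 stood apart, with 11.7% of its counts from mitochondrially encoded genes, against 2.62% to 4.44% in WT and 3.38% in KO-1, and with the highest sums of red blood cell and adipocyte markers. KO-1 had the highest sum of cardiac muscle markers, 29061 normalised counts against 3095 to 4441 in WT and 4185 in KO-2. None of 9 smooth muscle markers passed the test. For 6 of them both KO libraries lay outside the WT range on one side, 3 above and 3 below, which held for 34.3% of all genes. Their summed normalised counts were 912588 to 1072050 in WT, 873687 in KO-1 and 1028190 in KO-2, so KO-1 lay below every WT library. Of 8 fibroblast markers 2 rose, with summed normalised counts of 54169 to 61179 in WT, 73691 in KO-1 and 66471 in KO-2, and their part in the changes of integrins and ligands was not tested. Nothing in the labels says whether libraries were pooled or made on the same day, and the p-values measure the spread between these libraries.

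Of the 10 integrin transcripts, 6 passed the DESeq2 test (adjusted p under 0.05 over 17070 genes): Itga2 and Itga6 rose, and Itga5, Itga7, Itga9 and Itgb5 fell in KO. Over all genes tested, 10.4% passed this threshold, 5.71% higher and 4.69% lower. With a change above 2-fold required as well, 3 members were called, against 5.64% of all genes: Itga2 and Itga6 higher, where 3.54% of all genes were called higher, and Itga7 lower, where 2.1% were called lower. Both KO libraries lay outside the WT range on one side for the same 6 members, which also held for 34.3% of all genes, 17.9% above and 16.4% below. The median log2 fold change over the 10 members was -0.13, and it was 0.01 over all genes tested. Without KO-2 the 4 lower members still passed and neither higher member did. Without KO-1 the test passed 7 members, with Itgav as an addition. In whole-vessel RNA, a smaller share of a cell type and less transcript per cell give the same reading.

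**Figure D1:**
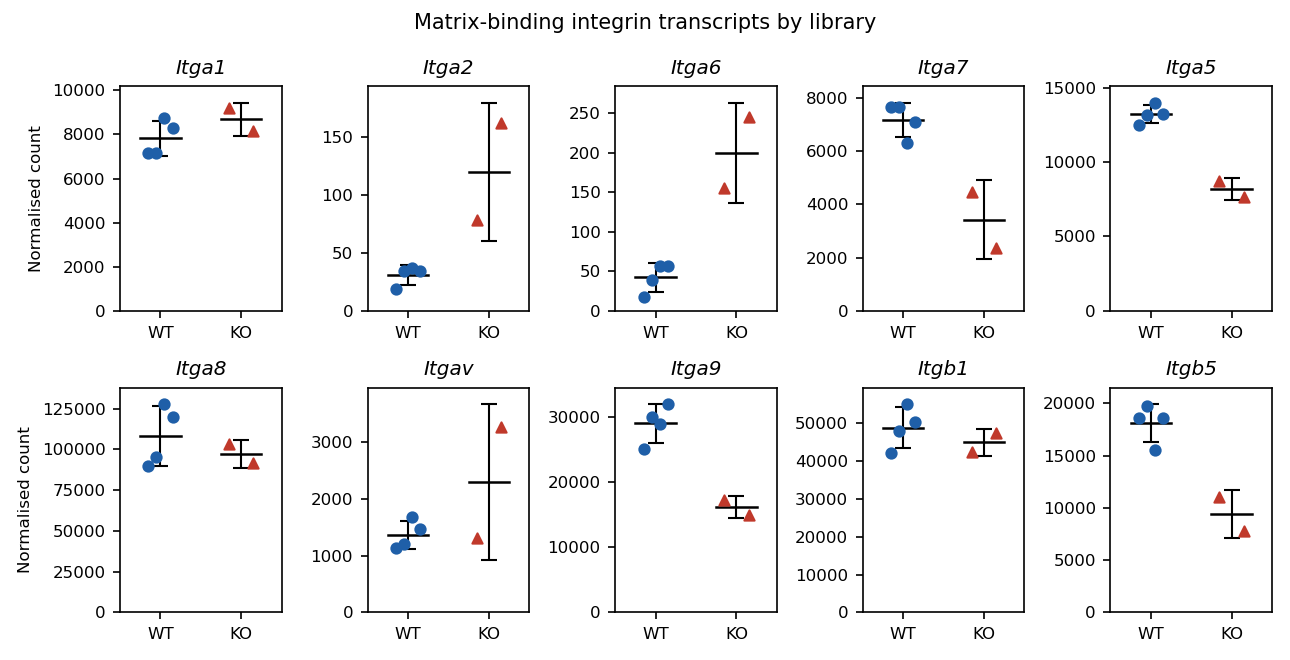
Normalised count (estimated count divided by the DESeq2 size factor, linear axis from 0) of each of the 10 integrin genes in the 4 WT libraries (circles) and the 2 KO libraries (triangles), with the mean and SD of each group in black. The KO points lie below all WT points for Itga7, Itga5, Itga9 and Itgb5, above them for Itga2 and Itga6, and KO-1 and KO-2 are far apart for Itgav (1318 and 3265).

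The collagen-binding subunits differed from each other. Itga1 (ENSMUSG00000042284.10, chromosome 13, 114953096 to 115101964, minus strand), the main collagen-binding alpha subunit of contractile SMCs, gave 7142, 7156, 8731 and 8273 normalised counts in the WT libraries, given here and for each gene that follows with WT-1 first, and 9215 and 8137 in KO-1 and KO-2. The groups overlapped, and the log2 fold change was 0.15 ± 0.17 (SE, DESeq2 adjusted p = 0.676), with a 95% interval from -0.18 to 0.48. Of its exon bases, 3.68% are shared with Gm49395, a protein-coding gene on the same strand, whose reads there cannot be told apart from those of Itga1. Itga2 (ENSMUSG00000015533.9, chromosome 13, 114833081 to 114932100, minus strand), the collagen receptor subunit of platelets and epithelia, gave 18.7, 34.1, 36.9 and 34.5 in WT and 78.2 and 162 in KO. These values rest on few reads, with estimated counts of 17, 38, 37 and 33 in WT and 103 and 132 in KO. Both KO libraries lay above every WT library, KO-2 further than KO-1. Its log2 fold change was 1.94 ± 0.48 (SE, DESeq2 adjusted p = 0.00145), a 3.84-fold rise at a low level. The call rested on KO-2: without it the log2 fold change was 1.34 with an adjusted p of 0.208.

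The 2 laminin-binding members moved in opposite directions. Itga3, a laminin-binding alpha subunit outside the members, gave 7482, 8407, 8094 and 6949 normalised counts in WT and 6538 and 6304 in KO. It did not pass (log2 fold change -0.27 ± 0.16, SE, DESeq2 adjusted p = 0.316) and was named after its values were seen. Itga7 (ENSMUSG00000025348.9, chromosome 10, 128933818 to 128958282, plus strand) encodes the laminin receptor subunit of differentiated skeletal, cardiac and smooth muscle. It gave 7650, 7674, 6312 and 7095 normalised counts in WT, and 4479 and 2374 in KO. Every KO value was below every WT value, and KO-2 lay 3.03-fold below the WT mean, against 1.60-fold for KO-1. The log2 fold change of -1.07 ± 0.24 (SE, DESeq2 adjusted p = 0.000349) put it past 2-fold in the fit to all 6 libraries, but the size turned on the settings: it was -0.94 with smooth muscle genes as scaling and -0.67 without KO-2, both past the test and under 2-fold. Itga6 (ENSMUSG00000027111.15, chromosome 2, 71745616 to 71858416, plus strand), the laminin receptor subunit of epithelia, endothelium and platelets, gave 17.6, 38.6, 56.9 and 56.4 in WT and 155 and 245 in KO. The WT libraries spread widely (coefficient of variation 43.9%), yet both KO libraries lay above all of them. The log2 fold change was 2.23 ± 0.47 (SE, DESeq2 adjusted p = 7.34e-05), and without KO-2 it was 1.88 with an adjusted p of 0.0638. The Itga6 values rest on few reads, with estimated counts of 16, 43, 57 and 54 in WT and 204 and 199 in KO. Per kb of exon, the ratio of Itga7 to Itga6 ran from 124 to 486 in WT and was 32.3 in KO-1 and 10.8 in KO-2. The ratio of 486 was that of WT-1, with 16 estimated counts of Itga6, so its size is uncertain. Itga7 stayed the more abundant transcript in all 6 libraries.

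Among the RGD-binding alpha subunits, Itga5 fell and Itga8 and Itgav did not pass. Itga5 (ENSMUSG00000000555.7, chromosome 15, 103344286 to 103366763, minus strand), the alpha subunit of the classical fibronectin receptor, gave 12474, 13177, 13990 and 13224 normalised counts in WT, and 8709 and 7658 in KO. It varied least of the members in WT (coefficient of variation 4.69%), and the KO libraries lay close together and below. The log2 fold change was -0.69 ± 0.15 (SE, DESeq2 adjusted p = 0.000167), a 1.61-fold fall. Itga8 (ENSMUSG00000026768.10, chromosome 2, 12106632 to 12301922, minus strand), the nephronectin and fibronectin receptor subunit typical of contractile SMCs, gave 89961, 95125, 127690 and 119722 in WT and 103467 and 91353 in KO. The KO values fell inside the WT range, and the log2 fold change was -0.15 ± 0.19 (SE, DESeq2 adjusted p = 0.724), with a 95% interval from -0.53 to 0.23. Of its annotated exon bases, 5.05% are shared with the antisense gene E030013I19Rik, and since the use of strand in counting is not stated, reads there cannot be assigned to either gene with certainty.

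Itgav (ENSMUSG00000027087.11, chromosome 2, 83724397 to 83806916, plus strand), the alpha subunit of the vitronectin receptors that also bind latent TGF-β, gave 1126, 1207, 1675 and 1461 normalised counts in WT, and 1318 and 3265 in KO. KO-1 lay inside the WT range and KO-2 at 2.39-fold of the WT mean, so the KO pair did not show one level. The log2 fold change was 0.74 ± 0.31 (SE, DESeq2 adjusted p = 0.114). Without KO-1 it was 1.26 with an adjusted p of 4.63e-05, and without KO-2 it was -0.04 with an adjusted p of 0.958. Opposite-strand gene Gm13684 shares 5.90% of the Itgav exon bases, with the same uncertainty as for Itga8.

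Itga9 (ENSMUSG00000039115.13, chromosome 9, 118606690 to 118901003, plus strand), a receptor subunit for tenascin-C, EMILIN1, SVEP1 and a splice form of fibronectin, had the smallest adjusted p of the members. Its normalised counts were 25003, 30030, 28983 and 31954 in WT and 17324 and 15001 in KO. The highest KO value was well below the lowest WT value. The log2 fold change was -0.84 ± 0.17 (SE, DESeq2 adjusted p = 2.96e-05), a 1.79-fold fall.

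The 2 beta subunits differed in outcome. Itgb1 (ENSMUSG00000025809.15, chromosome 8, 128685654 to 128733200, plus strand), the shared partner of the alpha subunits, gave 42126, 47868, 55037 and 50262 normalised counts in WT, and 42458 and 47433 in KO. Both KO values lay within the WT range, and the log2 fold change was -0.12 ± 0.17 (SE, DESeq2 adjusted p = 0.751), with a 95% interval from -0.45 to 0.21. Itgb5 (ENSMUSG00000022817.14, chromosome 16, 33829665 to 33949338, plus strand), which forms a vitronectin receptor with αv, gave 18639, 19718, 15523 and 18584 in WT and 11002 and 7763 in KO. All KO values were below all WT values. Its log2 fold change was -0.95 ± 0.19 (SE, DESeq2 adjusted p = 5.19e-05), a 1.93-fold fall, and it exceeded 2-fold without KO-1 (-1.22) and without WT-3 (-1.02). Itgb5 and its alpha partner thus read differently in KO-2, where Itgb5 was lowest and Itgav highest of the 6 libraries: per kb of exon, Itgb5 over Itgav was 28.03 to 50.1 in WT, 25.2 in KO-1 and 7.19 in KO-2.

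**Figure D2:**
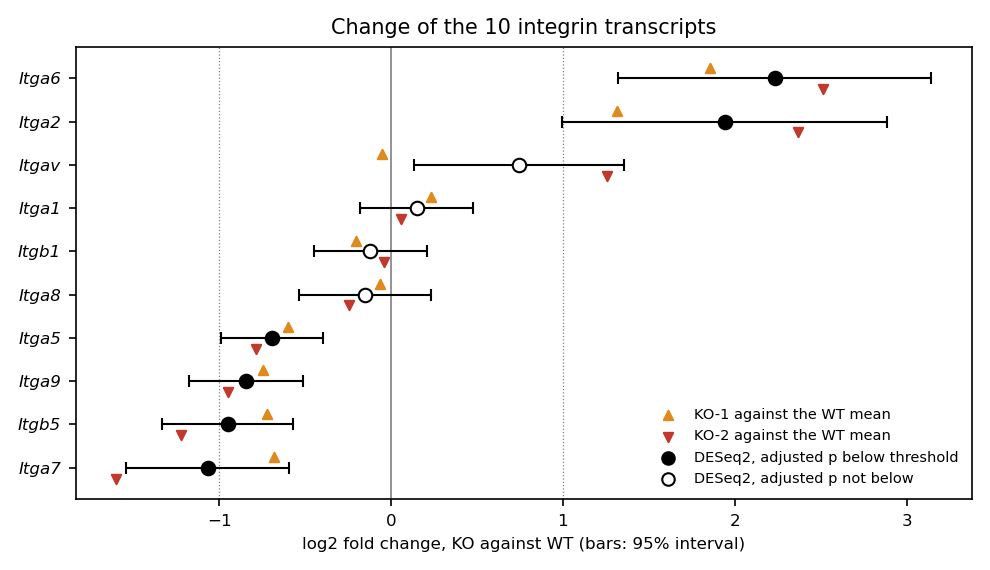
Log2 fold change of the 10 integrin genes in KO against WT (horizontal axis), with circles for the DESeq2 estimate, filled where the adjusted p was under 0.05, bars for its 95% interval, and triangles for each KO library against the mean of the 4 WT libraries; dotted lines mark a 2-fold change. Itga6 (2.23) and Itga2 (1.94) stand to the right, Itga5, Itga9, Itgb5 and Itga7 (-0.69 to -1.07) to the left, and only for Itgav do KO-1 and KO-2 fall on opposite sides of 0.

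Levels were compared between genes as normalised count per kb of annotated exon. In WT, Itga8 (14675 ± 2498, SD, n = 4) and Itgb1 (11964 ± 1315) were highest and their ranges overlapped. They were followed by Itgb5 (5099 ± 508), Itga9 (3770 ± 381), Itga5 (2679 ± 126), Itga7 (888 ± 79.0), Itga1 (421 ± 43.2) and Itgav (127 ± 23.3), each separate from its neighbours. Itga6 (4.70 ± 2.06) and Itga2 (4.35 ± 1.17) were lowest and overlapped. Even after their rise they stayed last in KO, at 22.1 ± 7.04 (SD, n = 2) and 16.9 ± 8.34. In KO, Itga1 (466 ± 41.0) ranked above Itga7 (423 ± 184) with overlapping ranges, and the ranges of Itgb5 (2641 ± 644) and Itga9 (2101 ± 214) met as well. The 2 largest integrin transcripts of this vessel were thus among those that did not pass. The 4 that fell stood at ranks 3 to 6 among the members.

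The makeup of the alpha members, which leaves out Itga3 and other alpha subunits, also differed between the groups. Itga8 made up 62.8%, 61.7%, 68.4% and 66.2% of the summed alpha-subunit level per kb in WT, and 72.9% and 73.0% in KO. Its share was higher in both KO libraries than in any WT library although its own level overlapped. Itga9 made up 16.7%, 18.6%, 14.9% and 16.9% in WT against 11.7% and 11.5% in KO, and Itga5 10.9% to 13.0% in WT against 9.17% and 9.14%. Itga1 made up 1.81% to 1.98% in WT against 2.57% and 2.58% in KO. Itga6 and Itga2 together stayed below 1% in every library. The sum of the alpha members other than Itgav, relative to Itgb1, was 1.78 to 1.98 in WT, 1.84 in KO-1 and 1.44 in KO-2. Only KO-2 thus lay outside the WT range, and Itgav, highest in that library, was not in the sum. With 4 against 2 libraries, a 1-sided exact permutation p that is doubled for 2 sides cannot go below 0.133, and these shares were not tested.

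**Figure D3:**
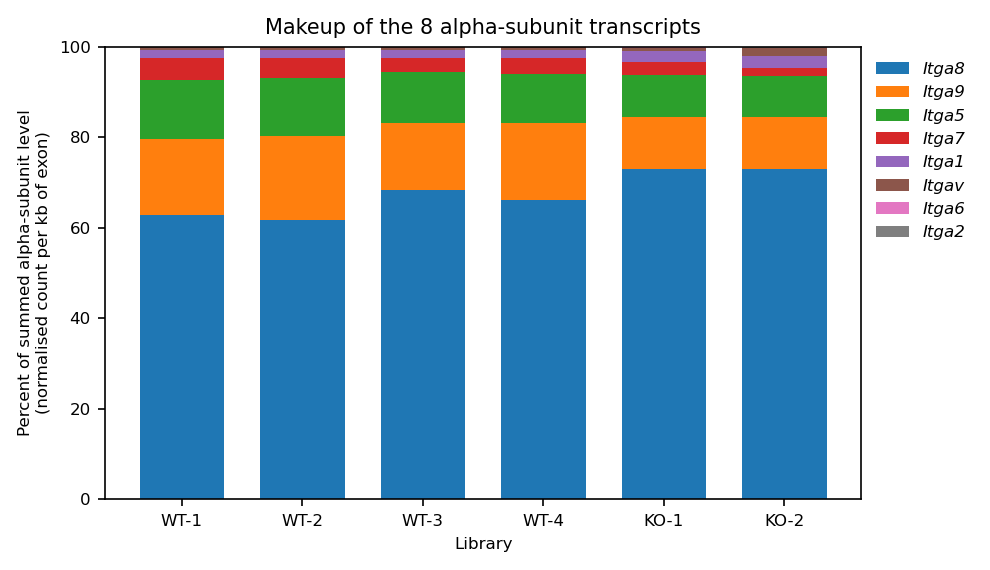
Share of each of the 8 alpha subunits in their summed level (percent of normalised count per kb of exon, vertical axis) in each WT and KO library. The Itga8 block takes 61.7% to 68.4% in the WT libraries and 72.9% and 73.0% in the KO libraries, where the Itga9 and Itga5 blocks are smaller, and the Itga6 and Itga2 blocks are too thin to see.

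A list of 16 other integrin subunits was read in the same fit, of which 13 were tested. Of these, 5 passed (38.5%, against 10.4% of all genes), 4 higher and 1 lower, and the median log2 fold change was 0.72. The leukocyte subunits led: Itgam (1.80 ± 0.27, SE, DESeq2 adjusted p = 2.05e-09), its beta partner Itgb2 (1.42 ± 0.32, adjusted p = 0.000246) and Itgal (1.72 ± 0.51, adjusted p = 0.0115) rose. Itgb4, the partner of integrin α6 in epithelial hemidesmosomes, gave 394, 605, 525 and 548 normalised counts in WT and 889 and 835 in KO, a log2 fold change of 0.73 ± 0.22 (adjusted p = 0.0144). Itgb3, the other major partner of αv in the vessel wall and of the platelet subunit αIIb, was lower, at 5559, 6208, 4797 and 5648 in WT against 4227 and 3305 in KO (log2 fold change -0.56 ± 0.18, adjusted p = 0.0275). The αv partners that passed, Itgb3 and Itgb5, were thus both lower. All 8 macrophage markers rose as well, with summed normalised counts of 6715 to 7834 in WT, 12415 in KO-1 and 13936 in KO-2, and their part in the leukocyte integrins was not tested.

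The matrix proteins that these integrins bind were read from a list of 30 ligand genes, of which 29 were tested. Of these 13 passed (44.8%, against 10.4% of all genes), 10 lower and 3 higher in KO, where 4.69% of all genes were lower and 5.71% higher. The median log2 fold change was -0.14. All 5 RGD ligands that passed were lower. Tnc, tenascin-C, bound by integrins α9, α8 and αv, gave 4255, 4674, 4830 and 4924 normalised counts in WT, and 2311 and 1743 in KO (log2 fold change -1.20 ± 0.18, SE, DESeq2 adjusted p = 2.95e-09). Npnt, nephronectin, the high-affinity ligand of integrin α8, gave 29764, 29646, 33667 and 29610 in WT and 15331 and 18358 in KO (-0.86 ± 0.16, adjusted p = 4.08e-06). Mfge8, milk fat globule protein, a ligand of αv integrins including the pair with β5, fell by 0.93 ± 0.17 on the log2 scale (adjusted p = 3.36e-06). Fn1, fibronectin, the ligand of integrin α5, was named after its values were seen and fell by 0.75 ± 0.16 (adjusted p = 0.000115). Itga5 and its ligand Fn1, and Itga9 and its ligand Tnc, were thus lower in the same libraries, whereas Npnt was lower and its receptor subunit Itga8 overlapped between the groups.

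Collagen and laminin ligands split by gene. Among 8 collagen chains 3 fell and none rose, led by the basement membrane chain Col4a2 with 30631, 33812, 31555 and 30575 normalised counts in WT and 16724 and 17793 in KO (log2 fold change -0.87 ± 0.14, SE, DESeq2 adjusted p = 1.29e-07). Of 7 laminin chains tested 2 rose and 1 fell. Lamb1, the laminin β1 chain, gave 286, 308, 308 and 388 in WT and 719 and 836 in KO (1.27 ± 0.22, adjusted p = 5.89e-07). The other laminin chains that passed were named after their values were seen: Lama3 rose (1.67 ± 0.38) and Lama5 fell (-0.65 ± 0.20). Svep1, a large adhesion protein bound by integrin α9, gave 1162, 1475, 1580 and 2010 in WT and 5522 and 2757 in KO (1.41 ± 0.29, adjusted p = 4.22e-05), so the ligands of integrin α9 did not move one way. It is also made by mesenchymal cells around lymphatic vessels.

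**Figure D4:**
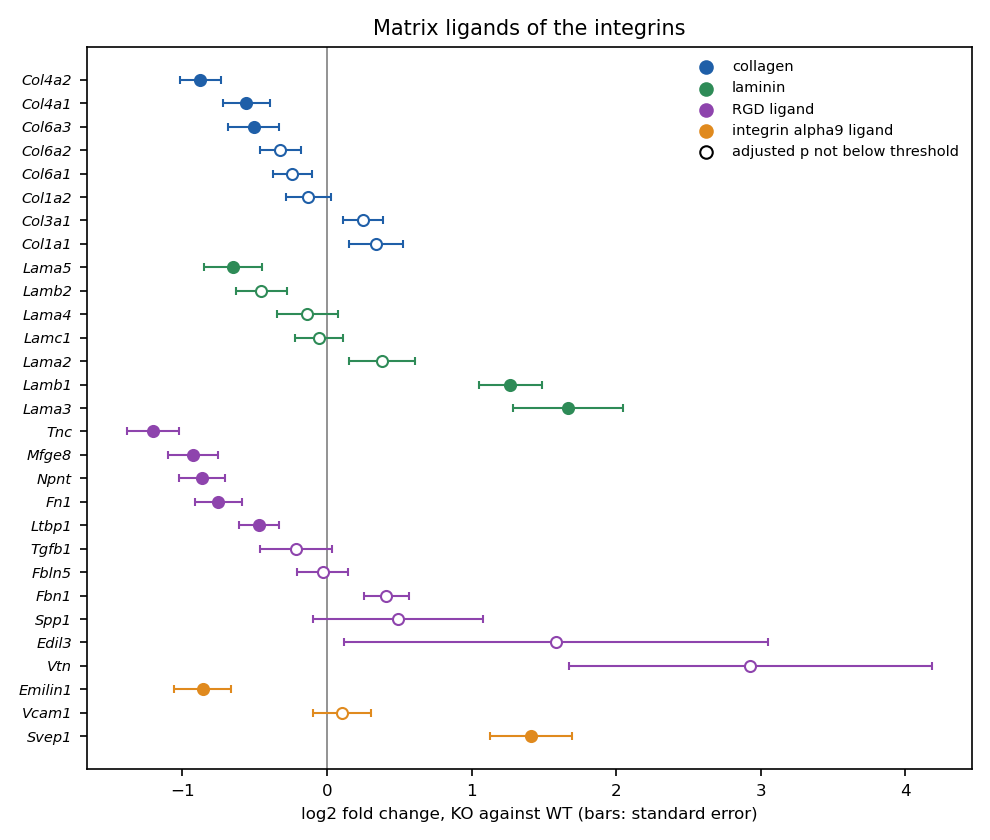
Log2 fold change of the 29 tested ligand genes in KO against WT (horizontal axis, DESeq2 estimate with SE), coloured by the class of ligand and filled where the adjusted p was under 0.05. Filled points lie left of 0 for the collagen chains and RGD ligands, with Tnc furthest at -1.20, while Lamb1, Lama3 and Svep1 lie to the right.

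Of 28 genes of the adhesion machinery inside the cell, 27 were tested and 8 passed (29.6%, against 10.4% of all genes). Of these, 4 were higher and 4 lower, and the median log2 fold change of the tested genes was -0.05. The integrin activators Tln1 (talin, log2 fold change -0.06 ± 0.16, SE) and Fermt2 (kindlin, 0.21 ± 0.15) did not pass, nor did Ilk (-0.24 ± 0.15) or Vcl (vinculin, -0.06 ± 0.15), and these 4 were named after their values were seen. Actn1, α-actinin, which crosslinks actin at adhesions, gave 47252, 46968, 52951 and 48711 normalised counts in WT and 28390 and 28040 in KO (log2 fold change -0.80 ± 0.14, DESeq2 adjusted p = 2.53e-06). Tns1, tensin, which links the β tail to actin, fell by 0.55 ± 0.15 on the log2 scale (adjusted p = 0.00515). Src, an adhesion kinase, gave 672, 1723, 1688 and 1709 in WT and 656 and 482 in KO (-1.35 ± 0.33, adjusted p = 0.00146), with WT-1 close to the KO level. The adaptors Parvb (1.18 ± 0.27, adjusted p = 0.000563) and Pxn (0.92 ± 0.22, adjusted p = 0.000677) rose, as did Dab2 (0.99 ± 0.27, adjusted p = 0.00576), an endocytic adaptor of integrins that macrophages also make.

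Integrins α2 and α6 are also carried by endothelial cells, mesothelium and platelets, whose markers were read in the same libraries. Of 9 endothelial markers 4 rose and 5 did not pass, with summed normalised counts of 13165 to 23233 in WT, 32820 in KO-1 and 31849 in KO-2. Pecam1 and Vwf made up most of these sums, and Egfl7, among those that did not pass, lay below every WT library (1023 to 1466) at 854 in KO-1 and 810 in KO-2 (these genes were named after their values were seen). All 4 lymphatic endothelial markers rose, with sums of 797 to 967 in WT, 2005 in KO-1 and 2684 in KO-2. The 6 mesothelial markers rose too, with sums of 228 to 451 in WT, 899 in KO-1 and 2460 in KO-2, and among their defining genes Wt1 was at 0 in WT-2. Of 5 platelet markers 2 rose and 3 did not pass, with sums of 358 to 470 in WT, 756 in KO-1 and 927 in KO-2. Like Itga2 and Itga6, the lymphatic, mesothelial and platelet sums were highest in KO-2, but not every marker was. Lyve1 made up most of the lymphatic sums, at 690 to 866 in WT, 1471 in KO-1 and 1873 in KO-2. Pf4 made up most of the platelet sums. Both sums thus rest largely on a single gene whose cell source was not tested. All 8 macrophage markers rose in the same libraries. Prox1 was higher in KO-1 (124) than in KO-2 (55.3), and so was the platelet marker Pf4 (495 and 466). The other lymphatic and platelet markers were higher in KO-2 (these genes, too, were named after their values were seen). The part of these cells in the rise of Itga2 and Itga6 was not tested. White adipocyte markers (sums of 1938 to 3343 in WT, 3273 in KO-1 and 29881 in KO-2) and brown adipocyte markers (463 to 666 in WT, 781 in KO-1 and 11348 in KO-2) stood highest in KO-2, the library with the high Itgav value, and their part in it was not tested. For the 4 members that fell, both KO libraries lay below WT, and each still passed when either KO library was left out.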

How the data were processed

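Thoracic aortas of 4 WT and 2 KO mice were profiled by bulk RNA sequencing. The authors trimmed reads, ran HISAT2 against GRCm38, quantified genes with StringTie on a GENCODE annotation and deposited estimated counts per gene, which were whole numbers. Use of strand is not given in the sources used here. Column codes fix only the group of a library. No library pair of a group agreed within sampling noise. The chi-square per degree of freedom was 34.5 to 61.2 for the WT pairs and 172 for the KO pair, which thus agreed least. Counts were tested with DESeq2 1.42.0 in R 4.3.3 (design: group, default size factors and outlier handling, independent filtering at 0.05), with Benjamini-Hochberg adjustment over 17070 genes; 27151 of 52636 genes had 0 counts in all libraries. Called genes had an adjusted p under 0.05 and more than 2-fold change. The procedure was tested on simulated data. Alternatives were edgeR 4.0.16 (quasi-likelihood), other filters and scalings, and leaving out each library. Positions, exon lengths and overlaps came from GENCODE M21 (52489 gene IDs matched), promoters from RefSeq for 8 of the 10 members. The members and gene lists were chosen with earlier results of these data known. All members were named, and from the lists of other integrins, ligands and adhesion machinery up to 6 genes with the smallest adjusted p below 0.05; any other gene was named after its values were seen. With total counts of 19650983 to 28860598 per library, counting error was small for all members but Itga2 and Itga6.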

Additional observations from a re-analysis of the deposited data

Results flagged for a closer look

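A WT library that lay apart from the other 3 was looked for in 108 results: 23 levels, shares and ratios of the members, 71 genes (the tested genes of the lists of other integrins, ligands and adhesion machinery, and the targeted receptors) and 14 sums of cell type markers. In 9 of them the gap to the nearest library, as a share of the group's range, was above Dixon's 95% critical value for 4 samples. Chance alone gives such a gap in about 1 of 20 groups. The only member among them was Itga2, with a normalised count of 18.7 in WT-1, where WT-2, WT-3 and WT-4 ranged from 34.1 to 36.9 (gap share 0.846). Src had the widest gap, with 672 in WT-1 and 1688 to 1723 in the remaining WT libraries (0.966). WT-3 lay above the rest for Npnt, at 33667 (the others 29610 to 29764), for Actn4, at 35449 (23251 to 24933), for Tns2, at 12841 (10988 to 11234), and for the sum of smooth muscle markers, at 1072050 (912588 to 937669). WT-4 was highest for Itga4, at 476 (362.8 to 371), and lowest for Bcar1, at 1243 (1401 to 1424). WT-2 was highest for Col4a1, at 40038 (35200 to 35967). The genes outside the lists' named ones appear here because of these gaps and were chosen after their values were seen.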

How the results depend on the processing

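Each of the 10 members was fitted under 13 alternatives, and 126 of 130 values kept their direction and their side of the threshold. Itga5, Itga7, Itga9 and Itgb5 passed in 13 of 13, and Itga1, Itga8 and Itgb1 in none. The others turned on the KO libraries: Itga2 (1.34) and Itga6 (1.88) no longer passed without KO-2, and Itgav passed without KO-1 (1.26) and reversed without KO-2 (-0.042). The number of members past the test was 6 under every other filter, tool and scaling and ran from 4 to 7 when a library was left out; a group left with 1 KO library was assumed to vary like WT. Called genes over the table numbered 962, 618 with edgeR with a filter, and 636 to 1284 when a library was left out. With smooth muscle genes as scaling, the median of all genes moved to 0.11 and 70.6% of genes past the test were higher, against 54.9% in the analysis reported, with 2 members higher and 4 lower as before. The difference between KO and WT of the alpha sum without Itgav over Itgb1 (-0.24) ran from -0.44 to -0.035 when a library was left out. The causes were not tested. The setting of the independent filter at 0.1 was chosen after seeing the data. No paired analysis was possible because the columns name a group and carry no replicate number of the labels, so the fit with that block was not run.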
